A study of Mus musculus with 8 samples.

Results

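Autophagy genes were followed in mouse macrophages treated with SLIT2. The group holds 35 named genes of the 41444 listed in the table: the initiation complexes, the membrane and lipid-transfer proteins, the 2 ubiquitin-like conjugation systems, the LC3 and GABARAP proteins and the cargo receptors. They were chosen by name, and all 35 were found under their own symbols. The cells were bone marrow-derived macrophages from wild-type C57BL/6 mice, grown with the growth factor M-CSF on plastic, so they are a culture model of macrophages and not cells taken from a tissue. One group received vehicle (n = 4 libraries) and the other 6 nM SLIT2, a secreted ligand of ROBO receptors, for 16 hours (n = 4 libraries). The sources used here do not give the age or sex of the mice, or whether replicates came from separate animals.

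Autophagy delivers cytoplasm, damaged organelles and microbes to lysosomes inside a vesicle with a double membrane. The ULK kinase complex starts the process, a lipid kinase complex built on Beclin 1 marks the site with the lipid PI3P, and ATG9 vesicles with ATG2 lipid-transfer proteins feed the growing membrane. LC3 and GABARAP proteins are then attached to membrane lipid by a conjugation cascade and bind receptors that carry cargo, of which p62 (encoded by Sqstm1) is the best known. In macrophages the same proteins serve the clearance of bacteria and the restraint of inflammasomes.

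A short motif, CACGTG, stood in the promoters of the pair that rose, Atg3 and Atg5. It also stood in that of Atg7, whose difference with SLIT2 was -0.15 (limma adjusted p = 0.515). The motifs were chosen after the values were seen, so the match to the pair is a description only. The promoter sequences of 4 genes that changed are shown. They come from RefSeq (GRCm38.p6), 5′ to 3′ on the strand of the gene, and capitals mark motif matches. Bases within the UTR of any annotated gene are left out, so the stretches differ in length.
Atg3 (plus strand, chr16:45158707-45158784): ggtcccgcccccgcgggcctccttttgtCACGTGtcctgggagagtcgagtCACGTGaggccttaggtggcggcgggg
Atg5 (plus strand, chr10:44268089-44268338): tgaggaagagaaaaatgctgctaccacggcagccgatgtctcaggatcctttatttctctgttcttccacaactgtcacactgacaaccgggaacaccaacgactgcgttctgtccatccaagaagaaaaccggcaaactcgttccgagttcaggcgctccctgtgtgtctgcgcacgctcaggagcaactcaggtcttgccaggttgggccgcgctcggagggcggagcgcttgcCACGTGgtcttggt
Gabarapl1 (plus strand, chr6:129532942-129533159): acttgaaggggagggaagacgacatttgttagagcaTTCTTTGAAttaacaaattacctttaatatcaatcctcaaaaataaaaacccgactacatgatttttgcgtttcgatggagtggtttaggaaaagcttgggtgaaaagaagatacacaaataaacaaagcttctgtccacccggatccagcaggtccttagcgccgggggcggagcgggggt
Sqstm1 (minus strand, chr11:50210828-50210889): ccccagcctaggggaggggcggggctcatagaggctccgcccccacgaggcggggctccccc

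The 250 bases before each RefSeq start were searched on both strands for 4 motifs. CACGTG is the E-box core bound by MiT/TFE and other basic helix-loop-helix factors, TGACNNNGC the core of antioxidant response elements, TTCNNNGAA a site type of STAT factors and TGTTTAC a forkhead core. Of the 35 genes, 30 had a RefSeq promoter in the table, with 34 promoters in all. CACGTG stood in 3 of the 34 promoters, those of Atg3 (2 matches), Atg5 (1 match) and Atg7, and in 6.02% of all 32851 promoters. In Atg3 the matches began 94 and 71 bases before the start, and in Atg5 the match began 14 bases before it. TTCNNNGAA was found for Gabarapl1, Gabarap, Nbr1 and Wipi1 (7.02% of all promoters), TGACNNNGC for Atg13, Tax1bp1 and Ulk2 (10.2%), and TGTTTAC for 0 of the 34 promoters (3.17%). The searched windows of Sqstm1 and Calcoco1 held 0 matches of these letters, and in the 5 windows of genes that changed 0 bases belonged to more than 1 match. A match describes the letters only and does not show that a factor binds there.

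Values are regularized-log (rlog) expression values as deposited, on a log2 scale, and a difference is the SLIT2 mean minus the vehicle mean. All 8 macrophage genes checked had a mean over the libraries of at least 4, the level set for testing. Their means ran from 11.96 for Mertk to 18.76 for Lyz2. Of these 8, 2 rose and 1 fell with SLIT2 by limma: Mrc1, the mannose receptor gene, rose by 1.18 (adjusted p = 0.00125), the Fc receptor gene Fcgr1 rose by 1.17 (adjusted p = 0.00160) and Cd68 fell by 0.24 (adjusted p = 0.0183). The changes of Mrc1 and Fcgr1 were larger than the difference of any of the 35 autophagy genes. Itgam had 0.73 (adjusted p = 0.169, and 6.29e-04 with the block). B and T cell markers (5 genes) all lay below that level, 3 mast cell genes were listed at 0, and 1 of 6 neutrophil genes and 1 of 4 dendritic cell genes reached it. The neutrophil markers, summed on the linear scale, ranged from 5.20 to 5.70 (log2 of the sum) in vehicle and from 5.17 to 5.36 in SLIT2 libraries. Stromal and endothelial markers reached a mean of 4 for 4 of 6 genes, with log2 sums of 9.01 to 9.69 and 9.21 to 9.84. The erythroid and megakaryocyte list rested on Pf4, which macrophages also make, with log2 sums of 8.99 to 10.5 and 9.92 to 12.3. The part of these other cells, or of the changed macrophage markers, in any result was not tested. Replicates 1 and 2 stood apart from replicates 3 and 4 in both groups: Xist ranged from 7.47 to 7.65 in the first pair and from 12.69 to 12.79 in the second, and Ddx3y from 10.75 to 10.83 and from 5.9 to 6.45. Both genes are sex-linked, Xist on the X and Ddx3y on the Y chromosome, and the sources used here give no sex. The pairs are called replicate sets here.

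With SLIT2, the autophagy genes moved in both directions, with a typical size of difference near that of all genes tested. All 35 had a mean of at least 4 and entered the limma test with 11851 genes in all. SLIT2 lowered Gabarapl1, Sqstm1 and Calcoco1 and raised Atg3 and Atg5 at an adjusted p of 0.05, so 5 of 35 passed (14.3%), beside 13.3% of all genes tested. That share is near the background. In each direction, 2 of 35 were higher, beside 6.76% of all genes, and 3 of 35 lower, beside 6.58%. The median difference was -0.01 over the 35 genes and 0.00 over all genes tested. Regardless of sign, the median size was 0.1125 over all genes tested and 0.1075 over the 35 genes. The widest difference among them was -0.50, for Gabarapl1, and 1 of 35 exceeded 0.5 in size where 7.81% of all genes did. In bulk RNA, fewer cells of a type and less RNA per cell cannot be told apart.

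With the replicate number as a block, 16 of the 35 genes passed, 8 higher and 8 lower (45.7%, beside 33% of all genes, 16.6% higher and 16.4% lower). The 11 added genes were Atg9a, Becn1, Atg4a, Gabarap, Map1lc3b and Nbr1, which were higher, and Optn, Atg16l2, Atg4c, Ambra1 and Atg13, which were lower. With duplicates averaged within each set, Atg9a passed and the other 10 did not, with limma adjusted p-values from 0.102 (Optn) to 0.232 (Gabarap). That fit called fewer genes in general: 688 of the 11851 tested, against 3912 with the replicate block. Of the 35 genes it called 1 higher and 2 lower. The groups did not overlap for 7 genes, 4 higher and 3 lower, beside 20.5% of all genes tested (10.6% higher and 9.99% lower), namely the 5 that passed without the block, Atg4a and Becn1.

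**Figure D1:**
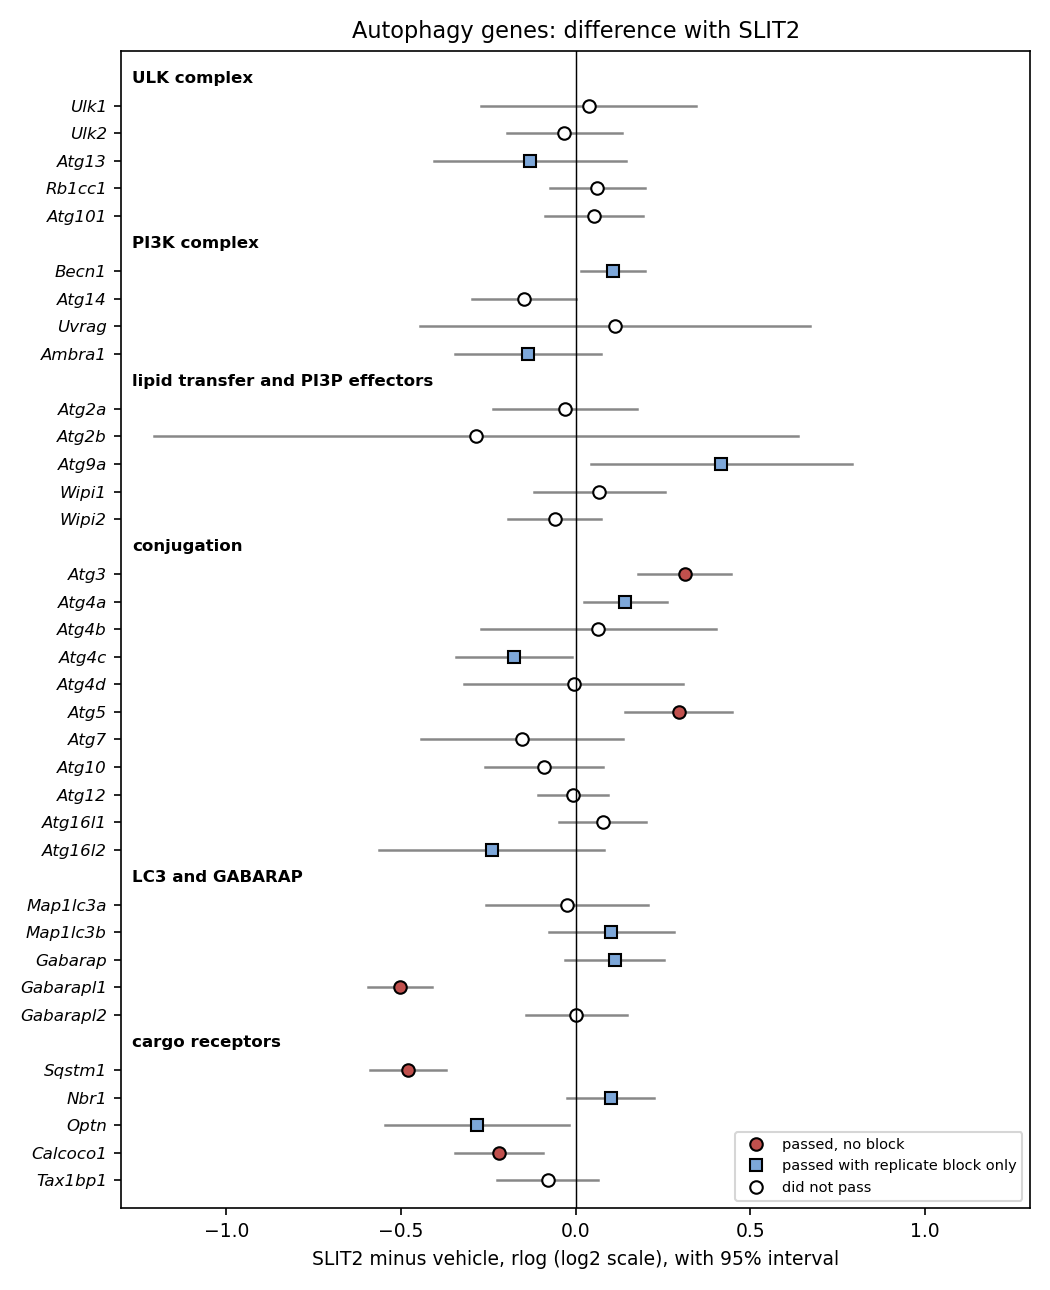
Differences between SLIT2 and vehicle (x axis, log2 scale, mean of 4 libraries each) for the 35 autophagy genes, by role, with 95% intervals of the limma fit without a block. Red circles passed without a block, blue squares with the replicate block only; the points on the left are led by Gabarapl1 at -0.50 and Sqstm1 at -0.48, and Atg9a, at 0.42, has a wide interval.

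Among the LC3 and GABARAP proteins, which are bound to the autophagosome membrane and recruit receptors, Gabarapl1 fell and the other 4 did not pass without the block. Gabarapl1 (ENSMUSG00000030161, chromosome 6, 129533160 to 129542346, plus strand, protein-coding) had rlog values of 12.48, 12.52, 12.55 and 12.61 in vehicle and 12, 12.06, 12.04 and 12.05 in SLIT2 libraries. Each SLIT2 library lay below each vehicle library. The mean went from 12.54 ± 0.055 to 12.04 ± 0.026 (SD, n = 4), a difference of -0.50 (SE 0.040, limma adjusted p = 2.08e-04), or 0.706 of the vehicle level on the linear scale. It fell by 0.47 in replicates 1 and 2 and by 0.54 in replicates 3 and 4.

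Gabarap itself, the founding member of its branch, had values of 14.04, 14.06, 14.21 and 14.25 in vehicle and 14.2, 14.2, 14.3 and 14.31 in SLIT2 libraries. Its groups overlapped, and its difference of 0.11 (95% interval -0.03 to 0.25) had a limma adjusted p of 0.301, of 0.0295 with the block and of 0.232 with averaged duplicates. Map1lc3b, the LC3 most used as an autophagy marker, had values of 12.48, 12.44, 12.3 and 12.3 in vehicle and 12.63, 12.57, 12.36 and 12.37 in SLIT2 libraries, overlapping because replicates 1 and 2 were higher in both groups. It had a difference of 0.10 (interval -0.08 to 0.28, adjusted p = 0.469, against 0.0329 under the block and 0.229 when duplicates were averaged). Gabarapl2 had 0.00 (interval -0.14 to 0.15) and Map1lc3a -0.03 (interval -0.26 to 0.21). The lower bounds for these 4 genes lay above the difference of Gabarapl1. The log2 ratio of Gabarapl1 to Gabarap within a library ran from -1.66 to -1.54 in vehicle and from -2.26 to -2.14 in SLIT2 libraries. That of Gabarapl1 to Map1lc3b ran from 0 to 0.31 and from -0.63 to -0.32. These pairs were chosen after their values were seen, and the ratios show unequal change only.

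An RNA annotated on the opposite strand, 1700101I11Rik, shares 570 exonic bases with Gabarapl1 (28.3% of its exonic bases). It lay between 0.72 and 0.83 in every library, far below Gabarapl1, and the sources used here do not give the strand setting of the counting. Map1lc3b and Gabarapl2 share stretches of read length with processed copies elsewhere in the genome, at most 2.3% of stretches for Map1lc3b (with Gm6055) and 4.32% for Gabarapl2 (with Gm3724).

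Of the cargo receptors, which bind ubiquitin or other tags on cargo at one end and LC3 proteins at the other, Sqstm1 and Calcoco1 fell and Nbr1, Optn and Tax1bp1 did not pass without the block. Sqstm1 (ENSMUSG00000015837, chromosome 11, 50199366 to 50210827, minus strand, protein-coding) encodes p62. Its values were 14.16, 14.15, 14.03 and 14.06 in vehicle and 13.68, 13.63, 13.6 and 13.57 in SLIT2 libraries, with no overlap. The mean went from 14.10 ± 0.065 to 13.62 ± 0.047 (SD, n = 4), a difference of -0.48 (SE 0.047, limma adjusted p = 4.82e-04), which is 0.717 of the vehicle level. In the replicate sets it fell by 0.50 and by 0.46. Mrnip, on the opposite strand, shares 580 exonic bases with Sqstm1 (17.3%). It lay between 5.08 and 5.42 in all libraries, with a difference of -0.15 (adjusted p = 0.361).

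Calcoco1 encodes a relative of the receptor NDP52 that has been tied to turnover of the endoplasmic reticulum and Golgi. The gene (ENSMUSG00000023055, chromosome 15, 102706777 to 102722178, minus strand) had values of 10.69, 10.72, 10.61 and 10.58 in vehicle and 10.51, 10.48, 10.35 and 10.38 in SLIT2 libraries. All SLIT2 values lay below all vehicle values, by a narrow margin. The difference was -0.22 (SE 0.055, limma adjusted p = 0.0351), which passed in each replicate set alone but was lost with averaged duplicates (adjusted p = 0.0816), without a filter on low values (0.0672), and without vehicle replicate 1 (0.0905), 2 (0.0934) or 3 (0.0643) or SLIT2 replicate 2 (0.0618), 3 (0.0882) or 4 (0.0863).

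Optn, the gene of optineurin, a receptor for bacteria and mitochondria, had values of 9.51, 9.58, 9.84 and 9.97 in vehicle and 9.3, 9.37, 9.58 and 9.52 in SLIT2 libraries. The groups overlapped because replicates 3 and 4 were higher in both, while within each set the SLIT2 libraries were lower. Its difference of -0.28 (SE 0.11) had a limma adjusted p of 0.161, of 0.00895 with the block and of 0.102 with averaged duplicates. Nbr1, a relative of p62, had values of 12.38, 12.32, 12.27 and 12.21 in vehicle and 12.46, 12.46, 12.33 and 12.33 in SLIT2 libraries, which overlapped. It had a difference of 0.10 (interval -0.02 to 0.22, adjusted p = 0.296, against 0.0304 under the block and 0.197 when duplicates were averaged). The log2 ratio of Sqstm1 to Nbr1 within a library ran from 1.76 to 1.85 in vehicle and from 1.17 to 1.27 in SLIT2 libraries, a pair again chosen after its values were seen. Tax1bp1, a receptor for bacteria and ubiquitin-bound proteins, had a difference of -0.08 (interval -0.23 to 0.07, adjusted p = 0.493).

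**Figure D2:**
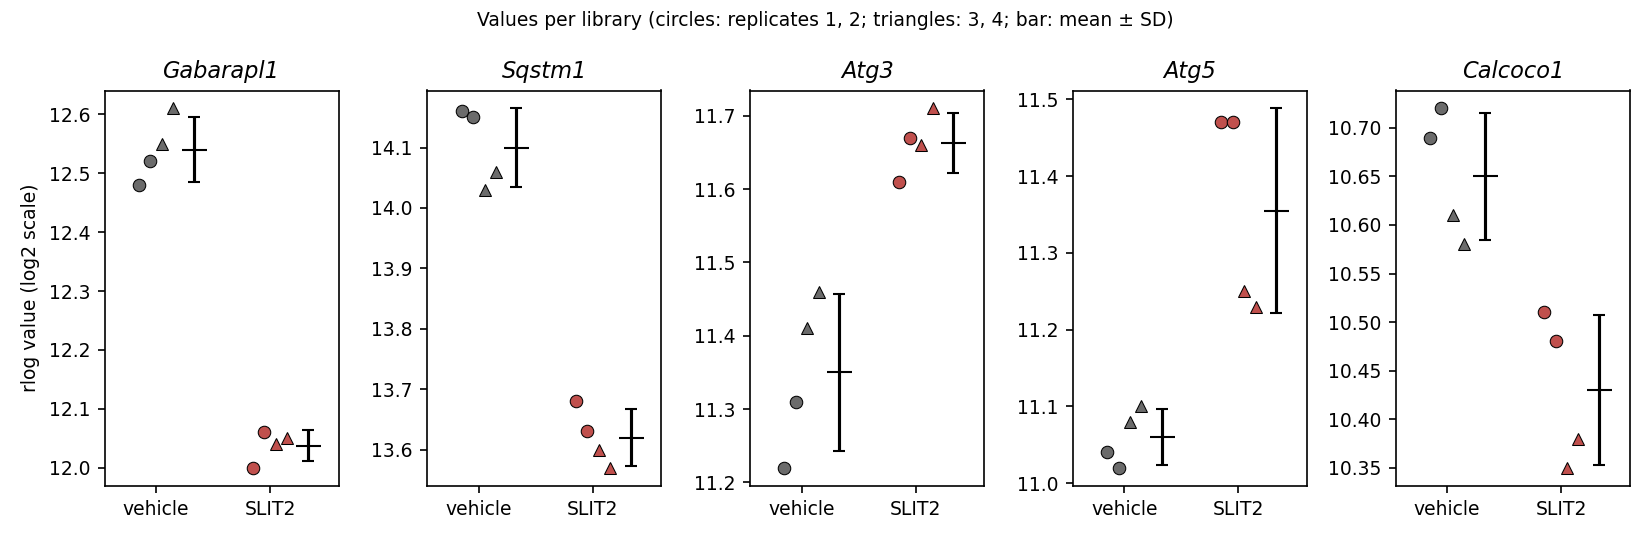
rlog values (y axis, log2 scale, a separate range per gene that does not start at 0) of the 5 genes that passed without a block, in 4 vehicle and 4 SLIT2 libraries, with circles for replicates 1 and 2, triangles for replicates 3 and 4 and bars for the mean ± SD. The groups are apart in every panel, and in Atg5 the SLIT2 circles at 11.47 lie above the SLIT2 triangles at 11.25 and 11.23.

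The conjugation genes make the covalent links of the pathway, and 2 of 11 rose, 0 fell and 9 did not pass without the block (18.2%, beside 13.3% of all genes). Atg3 encodes the E2-like enzyme that places LC3 proteins on membrane lipid. The gene (ENSMUSG00000022663, chromosome 16, 45158785 to 45188538, plus strand) had values of 11.22, 11.31, 11.41 and 11.46 in vehicle and 11.61, 11.67, 11.66 and 11.71 in SLIT2 libraries. Its groups did not overlap, and the vehicle libraries were more spread than the SLIT2 libraries. The mean went from 11.35 ± 0.11 to 11.66 ± 0.041 (SD, n = 4), a difference of 0.31 (SE 0.058, limma adjusted p = 0.00979) or 1.24 times the vehicle level. It was lost with averaged duplicates (adjusted p = 0.0704).

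Atg5 encodes the protein that is joined to ATG12 and then directs ATG3 to the membrane. The gene (ENSMUSG00000038160, chromosome 10, 44268358 to 44364291, plus strand) had values of 11.04, 11.02, 11.08 and 11.1 in vehicle and 11.47, 11.47, 11.25 and 11.23 in SLIT2 libraries. The vehicle libraries were close together, and the SLIT2 libraries of replicates 1 and 2 stood above those of replicates 3 and 4. The difference was 0.29 (SE 0.067, limma adjusted p = 0.0239). It was lost with averaged duplicates (adjusted p = 0.156), and without vehicle replicate 1 (0.0633), 2 (0.0670) or 3 (0.0544) or SLIT2 replicate 1 (0.0605) or 2 (0.0645). Atg12, its conjugation partner, had a difference of -0.01 (interval -0.11 to 0.09, adjusted p = 0.943).

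The other enzymes of the cascade had small differences. Atg7, the E1-like enzyme that serves both branches, had -0.15 (interval -0.44 to 0.14, adjusted p = 0.515, and 0.0702 with the block). The replicate sets gave -0.145 and -0.16 for Atg7, and it passed, as lower, with the replicate set as the block. Atg10, the E2-like enzyme for ATG12, had -0.09 (interval -0.26 to 0.08, adjusted p = 0.509). Atg16l1, which completes the ATG12-ATG5 complex, had 0.08 (adjusted p = 0.431), and its relative Atg16l2 had -0.24 (adjusted p = 0.335, against 0.0406 under the block and 0.192 when duplicates were averaged). Atg16l2 had values of 8.35, 8.26, 8.75 and 8.8 in vehicle and 8.14, 8.22, 8.4 and 8.44 in SLIT2 libraries, so that the groups overlapped and the SLIT2 libraries were lower within each set.

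The ATG4 proteases trim LC3 proteins before conjugation and release them afterwards. Atg4a had values of 9.27, 9.42, 9.33 and 9.39 in vehicle and 9.5, 9.53, 9.44 and 9.51 in SLIT2 libraries, apart by 0.02 at the closest. Its difference of 0.14 (SE 0.052) had a limma adjusted p of 0.120, of 0.0411 with the block and of 0.189 with averaged duplicates, and it passed in neither set alone (0.110 and 0.182). A pseudogene, Atg4a-ps, shares 34.5% of its stretches of read length, so the value is uncertain. Atg4c had values of 10.17, 10.25, 10.39 and 10.48 in vehicle and 10.14, 10.08, 10.19 and 10.18 in SLIT2 libraries, with a difference of -0.17 (adjusted p = 0.169, against 0.0366 under the block and 0.178 when duplicates were averaged). Atg4b had 0.06 (interval -0.27 to 0.40) and Atg4d -0.01 (interval -0.32 to 0.31). Atg4d shares 1405 exonic bases (19.3%) with Kri1 on the opposite strand, which was higher by 0.30 with SLIT2 (adjusted p = 0.0421).

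The ULK complex phosphorylates the downstream machinery when nutrients are short, and 0 of its 5 genes passed without the block, with Atg13 lower with it. Differences were 0.04 for the kinase gene Ulk1, -0.03 for its relative Ulk2, 0.06 for the scaffold gene Rb1cc1, 0.05 for Atg101 and -0.13 for the regulatory subunit gene Atg13. At an unadjusted p under 0.05, 0 of these 5 passed by limma, where 26.3% of all genes did. Atg13 had values of 10.48, 10.52, 10.13 and 10.19 in vehicle and 10.34, 10.37, 10.04 and 10.05 in SLIT2 libraries, higher in replicates 1 and 2 in both groups (adjusted p = 0.567, against 0.0215 under the block and 0.170 when duplicates were averaged).

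In the Beclin 1 complex, 0 of 4 genes passed without the block. Becn1, its core subunit, had values of 11.84, 11.92, 11.85 and 11.86 in vehicle and 12.01, 12.02, 11.94 and 11.93 in SLIT2 libraries, apart by 0.01 at the closest. The difference was 0.11 (SE 0.040, limma adjusted p = 0.129, against 0.0292 under the block and 0.197 when duplicates were averaged). Cntd1 on the opposite strand shares 43.9% of its exonic bases but lay between 3.21 and 3.44 in all libraries. Atg14, which directs the complex to autophagosome formation, had -0.15 (adjusted p = 0.191, and 0.0555 with the block). With the replicate set as the block, Atg14 passed (limma adjusted p = 0.0202). Uvrag, which takes the place of Atg14 in the endosomal form, had 0.11 (interval -0.45 to 0.67, adjusted p = 0.839). Ambra1, a regulator of the complex, had values of 10.62, 10.61, 10.4 and 10.5 in vehicle and 10.58, 10.5, 10.24 and 10.27 in SLIT2 libraries. Its groups overlapped, with a difference of -0.14 (adjusted p = 0.410, against 0.0432 under the block and 0.213 when duplicates were averaged). At an unadjusted p under 0.05, 1 of these 4 genes passed by limma, Becn1, beside the same 26.3% of all genes.

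Of the membrane supply genes, 0 of 5 passed without the block. Atg9a, which encodes a lipid scramblase on vesicles that seed the autophagosome, had values of 9.93, 10, 9.59 and 9.53 in vehicle and 10.51, 10.33, 9.97 and 9.91 in SLIT2 libraries. Replicates 1 and 2 were higher in both groups, and within each set the SLIT2 libraries were above vehicle. Its difference of 0.42 (SE 0.16) had a limma adjusted p of 0.148, of 0.00159 with the block and of 0.0465 with averaged duplicates. The sets gave 0.46 and 0.38. At an unadjusted p under 0.05, 1 of the 5 genes passed by limma, Atg9a (26.3% of all genes). Gm29253 shares 31.8% of its exonic bases on the same strand and lay between 4.17 and 5.41. The lipid-transfer genes Atg2a and Atg2b had differences of -0.03 (interval -0.24 to 0.18) and -0.29 (interval -1.21 to 0.64), and the PI3P-binding genes Wipi1 and Wipi2 had 0.07 (interval -0.12 to 0.25) and -0.06 (interval -0.19 to 0.07).

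The replicate sets differed in these genes more than the treatment did. Across the 35 genes, the set took 61.7% of the sum of squares, treatment 27.5%, their interaction 4.04% and the spread within duplicates 6.72%; over all genes tested, the set took 46.7% and treatment 37.3%. Genes with wide set differences, above all Atg2b and Uvrag, weigh most in these shares. The median size of the set difference was 0.1425 over the 35 genes and 0.165 over all genes tested. The difference between the sets was larger in size than the difference with SLIT2 for 23 of the 35 genes. Atg2b was highest in replicates 1 and 2, with 8.87 and 8.9 in vehicle and 8.88 and 8.76 in SLIT2, against 7.88 and 8.11 in vehicle and 7.59 and 7.39 in SLIT2 of replicates 3 and 4. The mean of replicates 3 and 4 was lower by 1.11 for Atg2b, 0.68 for Uvrag, 0.44 for Atg9a and 0.35 for Ulk1, and higher by 0.36 for Atg16l2. For Gabarapl1 and Sqstm1 the set differences were 0.05 and -0.09. These set differences are given as values, with no test.

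**Figure D3:**
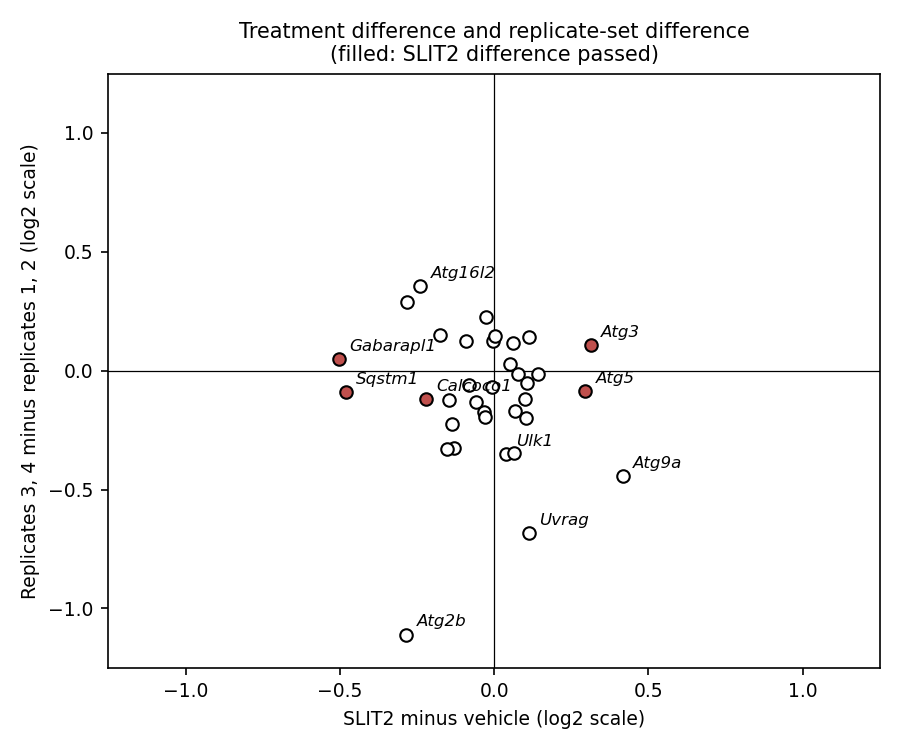
Difference with SLIT2 (x axis) against the difference of replicates 3 and 4 from replicates 1 and 2 (y axis), both on the log2 scale, for the 35 genes; filled points passed for SLIT2 without a block. Gabarapl1 and Sqstm1 lie far from 0 on the x axis and near 0 on the y axis, while Atg2b, at -0.29 on the x axis and -1.11 on the y axis, and Uvrag, at 0.11 and -0.68, lie farther from 0 on the y axis.

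Of the 35 genes, 25 had a difference of the same sign in both sets. The difference of the SLIT2 effect between the sets passed the limma test for 1 of 35, Atg5, where 4.4% of all genes passed (2.12% with a higher effect in replicates 3 and 4 and 2.28% with a lower one). Its effect was lower in replicates 3 and 4 by 0.29 (adjusted p = 0.0127). For Atg2b the first pair gave -0.07 and the second -0.51, and the difference between them did not pass (adjusted p = 0.138). These tests rest on the spread within duplicates.

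**Figure D4:**
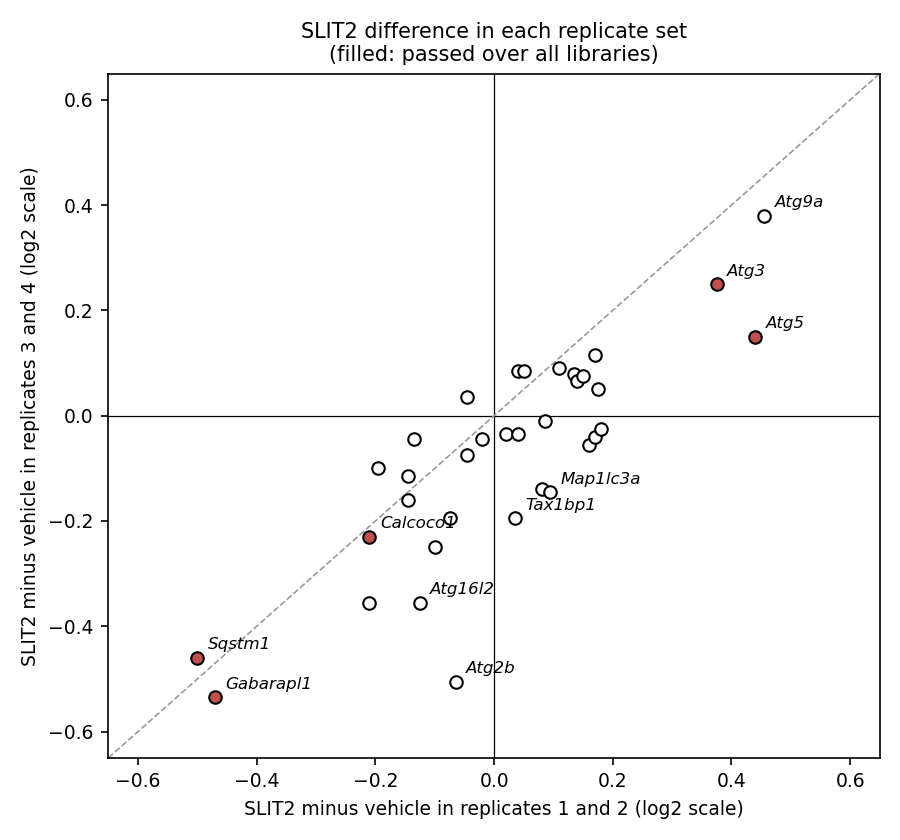
Difference with SLIT2 in replicates 1 and 2 (x axis) and in replicates 3 and 4 (y axis), on the log2 scale, for the 35 genes, with a dashed line of equal effect; filled points passed over all libraries. Gabarapl1, Sqstm1 and Calcoco1 lie near the line below 0, and Atg5 lies below the line at 0.44 and 0.15.

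Other genes of the pathway were counted in 3 lists, chosen with earlier results of these data known. Of 65 genes 63 were tested, since Prkaa2 had a mean of 3.71 and Sesn3 was listed at 0 in every library. By limma without the block 8 were higher and 8 lower (25.4%, beside 13.3% of all genes), and with the block 14 and 13 (42.9%, beside 33% of all genes). Their median difference was 0.00.

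In the list of lipid kinase, membrane and fusion genes, 5 of 23 rose and 2 fell (30.4%, beside 13.3% of all genes). Vmp1, which encodes a scramblase of the endoplasmic reticulum needed for autophagosome growth, had values of 11.64, 11.58, 11.47 and 11.58 in vehicle and 12.34, 12.39, 12.37 and 12.4 in SLIT2 libraries. It rose by 0.81 (SE 0.045, limma adjusted p = 5.62e-05), with the groups far apart. The microRNA gene Mir21a, on the same strand, shares 92 exonic bases with Vmp1 (2.38%), and its part in the value was not tested. Tmem41b, a scramblase that acts with Vmp1, rose by 0.39 (SE 0.093, adjusted p = 0.0302), and 6.99% of its stretches of read length are shared with another gene. Tecpr1, a tether between autophagosomes and lysosomes, had values of 13.31, 13.24, 13.6 and 13.54 in vehicle and 12.61, 12.55, 12.8 and 12.79 in SLIT2 libraries. It fell by 0.73 (SE 0.097, adjusted p = 0.00191). Plekhm1, an adaptor for fusion with lysosomes, fell by 0.37 (SE 0.054, adjusted p = 0.00329).

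Of 15 receptors for organelles and ferritin, 1 rose and 1 fell (13.3%, the same as the background). Fundc1, a receptor for mitochondria, rose by 0.41 (SE 0.052, limma adjusted p = 0.00165) from values of 10.25 to 10.31 in vehicle to 10.59 to 10.77 in SLIT2 libraries. Ncoa4, the receptor for ferritin, fell by 0.35 (SE 0.053, adjusted p = 0.00357), and 15.9% of its stretches of read length are shared with another gene. With the block, 4 were higher and 2 lower (40%, beside 33% of all genes).

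Of 25 tested upstream regulators, 2 rose and 5 fell (28%, beside 13.3% of all genes, 6.76% higher and 6.58% lower). Tfeb, the transcription factor best known for driving autophagy and lysosome genes, had values of 10.37, 10.27, 10.72 and 10.71 in vehicle and 9.82, 9.96, 10.14 and 10.12 in SLIT2 libraries. It fell by 0.51 (SE 0.12, limma adjusted p = 0.0310), and its groups did not overlap. Rptor, which encodes a scaffold of the nutrient-sensing kinase complex mTORC1, fell by 0.50 (SE 0.10, adjusted p = 0.0166), from values of 10.67 to 11 in vehicle to 10.22 to 10.52 in SLIT2 libraries. Sesn1, whose product restrains mTORC1, fell by 0.49 (SE 0.041, adjusted p = 2.37e-04), and the forkhead factor gene Foxo3 by 0.38 (SE 0.070, adjusted p = 0.00929). The 2 that rose were Trp53inp2, by 0.26 (limma adjusted p = 0.00514), and Stk11, by 0.17 (adjusted p = 0.0331). Of the relatives of Tfeb, Mitf fell by 0.37 (adjusted p = 0.00979) and Tfe3 had -0.035 (adjusted p = 0.799). Foxo1, a relative of Foxo3, had 0.11 (adjusted p = 0.190). With the block, 4 regulators were higher and 8 lower (48%, beside 33% of all genes).

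**Figure D5:**
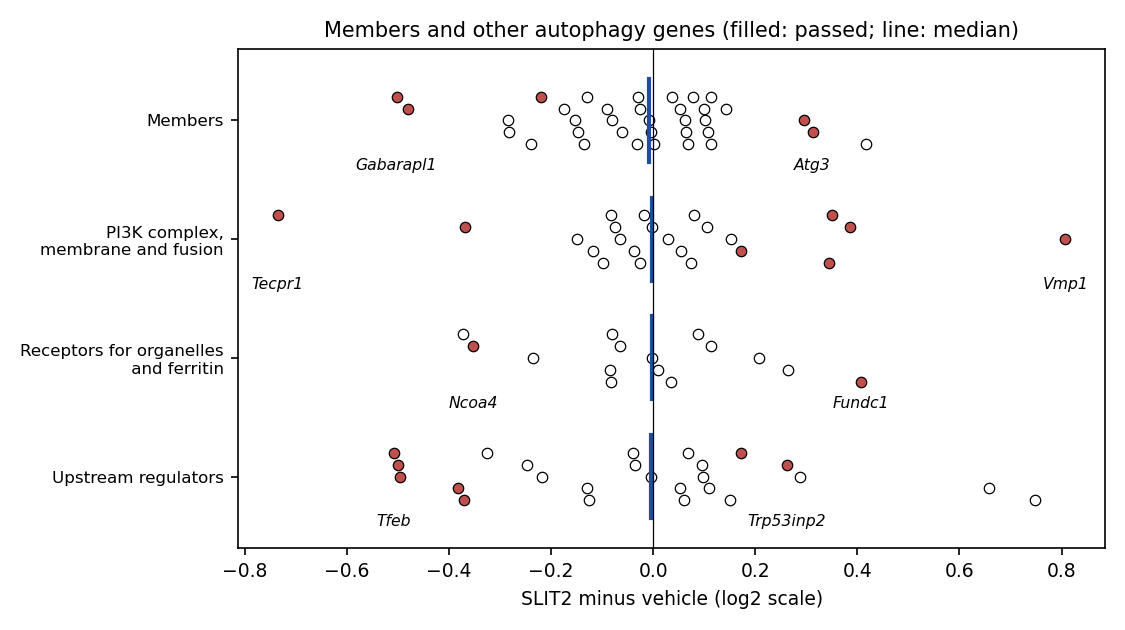
Differences with SLIT2 (x axis, log2 scale) of the 35 genes and of the 3 other autophagy lists; each point is a gene, filled where it passed the limma test without a block, and the line marks the median of the list. The 4 medians lie near 0, and Vmp1 at 0.81 and Tecpr1 at -0.73 mark the widest called differences.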

How the data were processed

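Per the labels' protocols, stranded mRNA libraries of 4 vehicle and 4 SLIT2 samples were sequenced. Per the submitters' processing notes, the authors' tools were STAR, Salmon, DESeq2, Picard 2.23.8, SAMtools 1.7 and FastQC 0.11.9, on mm10 and GRCm38. Their roles and settings are not stated there. The deposited values are named as rlog and lie on a log2 scale. By its definition that transform scales libraries and shrinks low genes towards their mean, which understates their differences. The table holds no counts, so the depth per sample is unknown. Genes whose mean rlog reached 4 entered limma 3.58.1, run in R 4.3.3 (treatment only, mean-variance trend, two-sided, Benjamini-Hochberg over all 11851 genes, threshold 0.05) after checks on simulated data. Alternatives were a replicate block, a set block, averaged duplicates, single sets, other filters, scalings, priors, weights and leaving out each library.

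The labels number replicates 1 to 4 in both groups. Deviations from the group means were correlated across genes at 0.637, 0.671, 0.753 and 0.587 for samples sharing a number. Samples of the same set with other numbers were correlated at 0.601 to 0.722. By that measure the set pairs the samples, and the number does not pair them beyond the set. The replicate block assumes a pairing by number, which that measure does not show. The labels do not say that replicates are separate cultures or animals. The sets differed in the sex-linked genes Xist and Ddx3y, but nothing shows whether the duplicates of a set are separate. So p-values rest on sample-to-sample spread that may be technical within a set. Members and lists were chosen with earlier results of these data known. All 35 members are named. Of each other list up to 4 called genes with the widest difference are named. For the upstream regulators the other called genes are named too, with Tfe3 and Foxo1. Positions, overlaps and shared stretches of 101 bases came from GENCODE M21 (GRCm38), promoters from RefSeq (GRCm38.p6). The motifs were chosen after the values were seen. Figures were drawn with matplotlib 3.10.9.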

Additional observations from a re-analysis of the deposited data

Results flagged for a closer look

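Atg5 was the autophagy gene of the 35 whose response to SLIT2 differed between the replicate sets by the limma interaction test. The effect in replicates 3 and 4 minus that in replicates 1 and 2 was -0.29 (adjusted p = 0.0127), from differences of 0.44 and 0.15, and 4.4% of all genes tested passed. The test rests on the spread within duplicates, and what the sets share was not tested. A check for a single library far from the other 3 of its group marked 0 libraries for any of the 35 genes.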

How the results depend on the processing

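The calls of Gabarapl1 and Sqstm1 kept their direction and stayed past the threshold under all 20 alternatives run. The other 3 called genes kept their direction in all of them and lost the call in some, as given above. With the replicate block, which lost 0 of the 5 calls, 8 of the 35 genes were higher and 8 lower, and with the set as a block 8 and 10. The set block added Atg7 and Atg14, both lower, to the genes that passed with the replicate block. Over all 11851 genes tested, 2365 were higher and 2287 lower with the set block. With averaged duplicates 1 was higher, and 2 calls of the 5 (Gabarapl1, Sqstm1) were kept. In replicates 1 and 2 alone 8 were higher and 5 lower, and in replicates 3 and 4 alone 3 were higher and 8 lower. Over all 11851 genes tested, 2004 were higher and 1958 lower in the first pair, and 1469 and 1411 in the second. Leaving out 1 library gave 1 to 2 of the 35 genes higher and 2 to 3 lower. For the other autophagy lists, main counts were 8 higher and 8 lower. They became 14 and 13 with the replicate block, 18 and 14 with the set block, and 3 and 5 with averaged duplicates. The sets alone gave 16 and 15 (replicates 1 and 2) and 10 and 13 (replicates 3 and 4). Quantile normalization gave 5 higher and 9 lower, beside 747 and 841 of all genes tested. Leaving out 1 library gave 4 to 6 genes of these lists higher and 7 to 9 lower. Some uncalled differences changed sign. In replicates 1 and 2 alone these were Atg12 (0.02), Atg2a (0.08), Map1lc3a (0.095) and Tax1bp1 (0.035); in replicates 3 and 4 alone Atg101 (-0.055), Atg16l1 (-0.025), Atg4b (-0.04), Atg4d (0.035), Gabarapl2 (-0.035) and Ulk1 (-0.01). Atg4d was 0.017 with quantile normalization and 0.0034 with array weights, and Gabarapl2 -0.005 with median centring and -0.031 with quantile normalization. Without 1 library, Atg12 ran from -0.028 to 0.018, Atg2a from -0.1025 to 0.0275, Atg4b from -0.0117 to 0.198, Atg4d from -0.101 to 0.0625, Gabarapl2 from -0.0383 to 0.0417, Map1lc3a from -0.0908 to 0.0358, Ulk1 from -0.0408 to 0.139, Ulk2 from -0.0767 to 0.0075 and Uvrag from -0.0183 to 0.248. Over all genes, 1581 calls became 3912 with the replicate block, 4652 with the set block, 688 with averaged duplicates, 3962 and 2880 in the sets alone and 1021 without SLIT2 replicate 2. Without counts, what depth limits cannot be stated.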
